A study of Mus musculus with 18 samples.

Results

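The genes described here are 54 developmental transcription factor genes of the mouse, of 21900 protein-coding genes in RefSeq. They comprise 15 Fox (forkhead), 12 Sox, 9 T-box, 4 Gata and 13 basic helix-loop-helix (bHLH) genes, and Insm1, a zinc finger gene of neuroendocrine cells. They were taken by name, as gene bodies with 5 kb on either side, and every deposited region of H3K27me3 or H3K36me2 that overlapped them was read. The marks were profiled by CUT&RUN, a method that uses antibody-guided cleavage to release DNA near a histone mark, in single-cell suspensions of murine epidermis. Every mouse carried LSL-H3K36M, a construct encoding an H3 in which methionine takes the place of lysine 36 and which is silent until Cre removes a stop cassette. The mutant mice were Krt14-Cre(+); LSL-H3K36M and the controls, called WT as in the tables, were Krt14-Cre(-); LSL-H3K36M, with 3 animals per genotype and 1 library per animal and antibody. The Krt14 promoter drives Cre in keratin-14-expressing epithelia, so other cells in the suspension need not carry the mutation. No ages are stated in the labels.

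H3K27me3 is laid down by Polycomb repressive complex 2 and covers the silent genes of master regulators in tissues that do not use them. H3K36me2, the mark that H3K36M blocks, hinders that complex on the same histone tail. Fox, Sox, T-box, Gata and bHLH proteins specify endoderm, mesoderm, limb, heart, blood and neurons, and in most tissues the majority of their genes are held under H3K27me3. A smaller number act in skin itself, among them Foxn1, Foxq1, Gata3, Sox21 and Tbx15.

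Promoters from RefSeq on GRCm38.p6 are shown for 4 members, as the 250 bases before the annotated start, with each CG dinucleotide in capitals, because CG-rich promoters are where Polycomb complexes are usually found in mammals. Of the 35 members with a RefSeq promoter, Ptf1a is the one whose promoter overlapped a called H3K27me3 window. Members without a RefSeq promoter could not be judged. Neurog2 and Eomes had a window centred within 1000 bp of their start, and Tcf21 had the member window with the smallest p. The last 3 were chosen after their values were seen. Ptf1a is at chr2:19445413-19445662 on the plus strand, Neurog2 at chr3:127632886-127633135 on the plus strand, Eomes at chr9:118477939-118478188 on the plus strand and Tcf21 at chr10:22820144-22820393 on the minus strand.
Ptf1a: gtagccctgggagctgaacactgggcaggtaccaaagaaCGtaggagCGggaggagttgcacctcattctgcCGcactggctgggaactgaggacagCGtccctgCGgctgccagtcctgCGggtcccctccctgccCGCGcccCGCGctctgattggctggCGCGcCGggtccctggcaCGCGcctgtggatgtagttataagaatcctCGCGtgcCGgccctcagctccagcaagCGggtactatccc
Neurog2: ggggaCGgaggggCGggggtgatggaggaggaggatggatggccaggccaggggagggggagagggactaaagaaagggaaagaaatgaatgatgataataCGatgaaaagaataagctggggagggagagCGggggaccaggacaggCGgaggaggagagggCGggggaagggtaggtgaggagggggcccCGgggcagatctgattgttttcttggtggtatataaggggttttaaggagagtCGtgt
Eomes: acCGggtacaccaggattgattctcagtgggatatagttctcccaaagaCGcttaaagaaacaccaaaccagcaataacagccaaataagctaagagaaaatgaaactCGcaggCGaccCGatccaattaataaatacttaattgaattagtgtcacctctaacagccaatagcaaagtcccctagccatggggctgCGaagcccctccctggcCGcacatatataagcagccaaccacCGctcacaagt
Tcf21: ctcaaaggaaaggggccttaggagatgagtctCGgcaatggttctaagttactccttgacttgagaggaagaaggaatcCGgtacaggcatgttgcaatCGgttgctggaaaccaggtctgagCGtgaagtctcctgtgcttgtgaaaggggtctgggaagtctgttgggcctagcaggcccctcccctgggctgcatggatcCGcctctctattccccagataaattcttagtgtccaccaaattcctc
The CG number in these stretches was 19 at Ptf1a, 8 at Neurog2, 8 at Eomes and 5 at Tcf21, so members with a called window included promoters both rich and poor in CG.

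For each mark, DiffBind compared 18072 short windows, and the deposited tables list 4285 H3K27me3 windows at an FDR under 0.05 and 730 H3K36me2 windows at a nominal p under 0.05. They give the mean of each genotype and no value per animal, so the spread between animals is carried by the DiffBind FDR alone. A SICER2 table gives 13409 H3K36me2 islands with reads pooled per genotype, from 59539924 mutant and 47361190 WT reads, and its FDR covers no spread between animals. Positions are on GRCm38. No label says more of each animal than its genotype and number.

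The first comparison asked how H3K27me3 at these genes differed between mutant and WT epidermis. It fell at 33 of the 54 genes (61.1%), with 35 windows, and rose at 1, Foxp1. Over all protein-coding genes 7.43% had a falling window and 2.64% a rising one within the same distance, and of all tested windows 15.2% fell and 8.54% rose. Many members are known Polycomb targets, and a fall can be called where the mark is present, so the share describes where H3K27me3 lies as well as how it changed. The members were also chosen with earlier results of these data known, so their share is not an independent result. Members are also short, with a median length of 4065 bp against 17146 bp for all genes. Among the 38 members under 10 kb, 25 (65.8%) had one that fell, against 4.37% of all genes of that size, and 0 had one that rose, against 0.768%. The suspension is a mixture, so fewer cells carrying the mark and less mark per cell cannot be told apart. Across the 35 windows the mutant mean was 0.232 to 0.594 times the WT mean, with a median of 0.441.

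**Figure D1:**
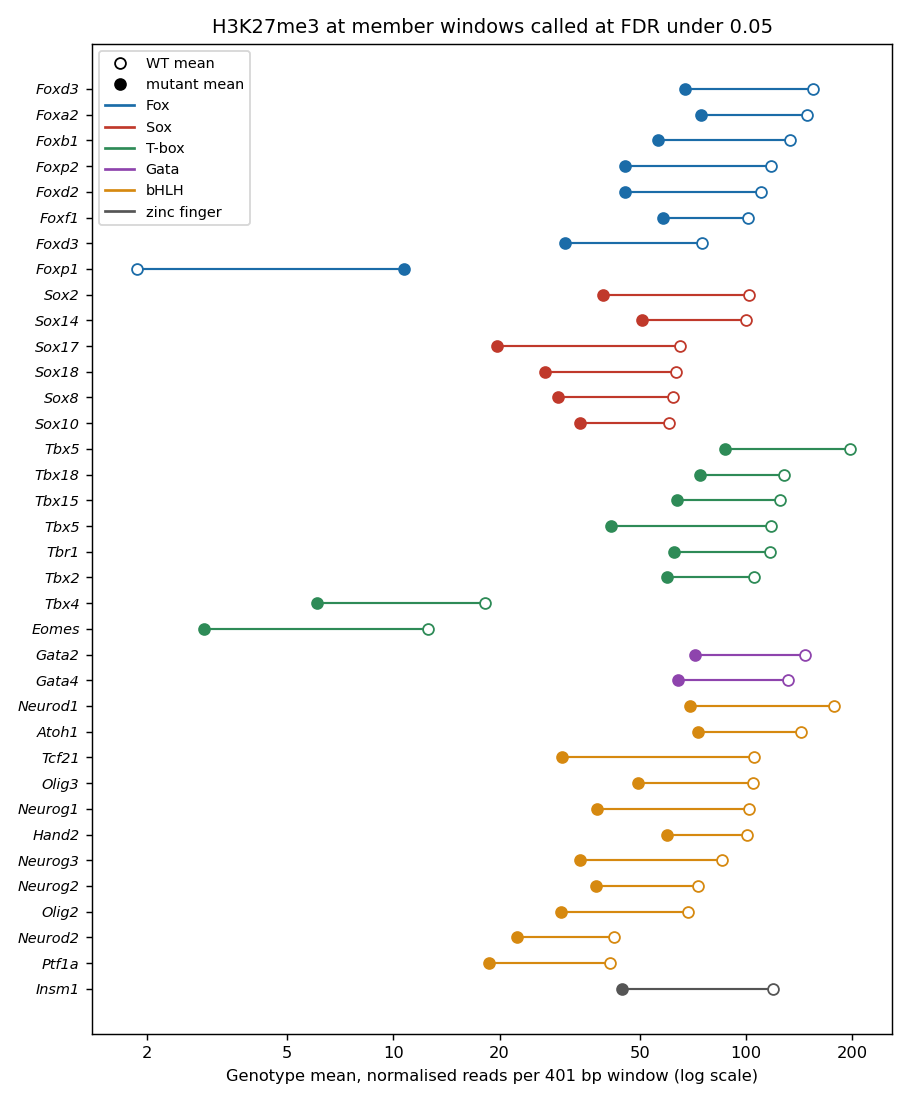
Genotype means of H3K27me3 (log axis, normalised reads per window) at the 36 called windows of the members, ordered by family and WT level, with WT as open and mutant as filled points. The mutant point lies left of the WT point in 35 windows, and Foxp1 is the exception.

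Among Fox genes, windows fell at 6 of 15. Foxd3, a neural crest factor, had a window on each side. The one 4056 bp beyond the gene, on chromosome 4 from 99662727 to 99663127, had a mean of 154 normalised reads in WT against 67.2 in the mutant, while the one 4832 bp away on the other side had 74.9 and 30.7. Both were reduced to a similar degree, to 0.435 and 0.409 times WT. Foxa2, which opens chromatin in endoderm, went from 149 to 74.6 normalised reads, and its FDR of 0.0228 by the authors' deposited table was the highest among the Fox windows. Foxb1, a gene of the developing hypothalamus, went from 133 to 56.1 at a window 4196 bp from the gene that also lies in the noncoding gene B230323A14Rik. Foxp2, a repressor gene studied in neurons, went from 117 to 45.3 at a window 2047 bp outside its body. Foxd2, expressed in kidney and facial mesenchyme, went from 109.9 to 45.5 inside the adjoining Foxd2os gene. Foxf1, needed in lung and gut mesenchyme, went from 101 to 58.1, the smallest proportional fall of the family at 0.574 times WT, inside the neighbouring Fendrr gene.

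Among Sox genes, windows fell at 6 of 12. The lowest ratio was at Sox17, a regulator of endoderm and arterial endothelium, where the mean went from 64.8 normalised reads in WT to 19.7 in the mutant within the gene, on chromosome 1 from 4493239 to 4493639. Its log2 fold was -1.52 and its FDR 1.31e-06 by the authors' deposited table. Sox2, which maintains pluripotent and neural progenitor cells and marks Merkel cells in skin, went from 102 to 39.3 at a window 3832 bp from the gene. That window lies in the Sox2ot transcript, so it belongs to both genes. Sox18, an endothelial regulator, went from 63.3 to 26.96 just 24 bp outside its body. The related SoxE genes Sox8 and Sox10, which act in neural crest cells, went from 61.9 to 29.3 and from 60.3 to 33.7. Sox14, a gene of spinal and midbrain interneurons, went from 99.9 to 50.7. Sox windows began at lower WT levels than Fox windows, with medians of 64.1 and 117 normalised reads, and ended at a similar fraction of WT, with median ratios of 0.449 and 0.422.

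T-box genes had falling windows at 7 of 9 members. Tbx5, which specifies forelimb and heart, had 2 called windows within the gene, among them the one with the highest WT mean of all called member windows. On chromosome 5 from 119835320 to 119835720 the mean was 197 normalised reads in WT against 87.0 in the mutant, and 99.9% of all falling windows had a lower WT mean. At the other Tbx5 window it went from 118 to 41.4. The FDRs were 1.82e-10 and 6.82e-10 by the authors' deposited table. Tbx18, of epicardium and dermal papilla, went from 128 to 74.1. Tbx15, which shapes dorsal dermis and its pigment border, went from 124 to 63.5. Tbr1, of cortical neurons, went from 117 to 62.3, and Tbx2, a repressor gene of heart and limb, from 105 to 59.8. These 4 kept 0.510 to 0.577 times the WT level. The remaining pair were weakly marked. Eomes, which acts in mesendoderm and in T and natural killer cells, went from 12.5 to 2.91, the lowest ratio of means among the member windows at 0.232. With so few reads that ratio is imprecise. Its deposited log2 fold was -1.19, and the lowest deposited fold of the members was -1.67, at Tcf21. Tbx4, of the hindlimb, went from 18.2 to 6.07. Their FDRs of 0.0279 and 0.0414 by the authors' deposited table were near the threshold, and both were lost at an FDR under 0.01.

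Gata2, of blood stem cells, and Gata4, of heart and endoderm, were closely alike. Gata2 went from 147 to 71.8 normalised reads and Gata4 from 132 to 64.3, each at a window inside the gene, and the ratios were 0.489 and 0.488. The FDRs were 5.51e-07 and 2.76e-06 by the authors' deposited table. Gata3 and Gata5 had no called window within 5 kb.

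Genes of the bHLH family had falling windows at 11 of 13 members (84.6%), against 7.43% of all genes. Of 39 further bHLH genes, 10 (25.6%) had one, so the share holds for the listed members and not for the family. Tcf21, which patterns mesenchyme of lung, kidney and spleen, had the strongest call, 19th by p of the 4285 windows. Its mean went from 105 normalised reads in WT to 30.1 in the mutant on chromosome 10 from 22823378 to 22823778, 3435 bp upstream of the start shown above, with a log2 fold of -1.67 and an FDR of 8.15e-12 by the authors' deposited table. The 3 neurogenins, which commit cells to neural or endocrine pancreas fates, all fell. Neurog1 went from 102 to 37.8, Neurog3 from 85.3 to 33.9 and Neurog2 from 73.0 to 37.5. Their downstream relatives Neurod1 and Neurod2, which drive neuronal differentiation, went from 177 to 69.2 and from 42.2 to 22.4. The neuronal branch thus spanned a wide range of WT levels with ratios of 0.371 to 0.530. Atoh1, required for Merkel cells and inner ear hair cells, went from 143 to 73.1. Olig2 and Olig3, regulators of oligodendrocytes and of dorsal neural tube, went from 68.5 to 29.8 and from 105 to 49.4. Hand2, of heart and limb, went from 101 to 59.8, the highest ratio of any falling member window at 0.594. Ptf1a, of exocrine pancreas and cerebellum, went from 41.2 to 18.6 across its start, at a window that also covers part of Ptf1aos. Insm1 went from 119 to 44.4 (FDR 2.18e-08 by the authors' deposited table). Its ratio of 0.373 lay within the 0.371 to 0.514 of the neurogenins.

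The falling windows of members were strongly marked in WT. Their median WT mean was 105 normalised reads, against 51.6 over all 2742 falling windows, and 24 of the 35 lay above 82.8, the upper quartile of that set. Their median log2 difference between genotype means was -1.18, against -1.28 over all falling windows, and 12 of the 35 fell by more than that median. Compared at like level, among windows above the upper quartile, the median difference was -1.13 for members and -1.17 for the 686 falling windows. In size of fall the members were therefore near the set as a whole, while in WT level they were above its middle. Members are part of the full set in each of these comparisons, and no test was made.

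**Figure D2:**
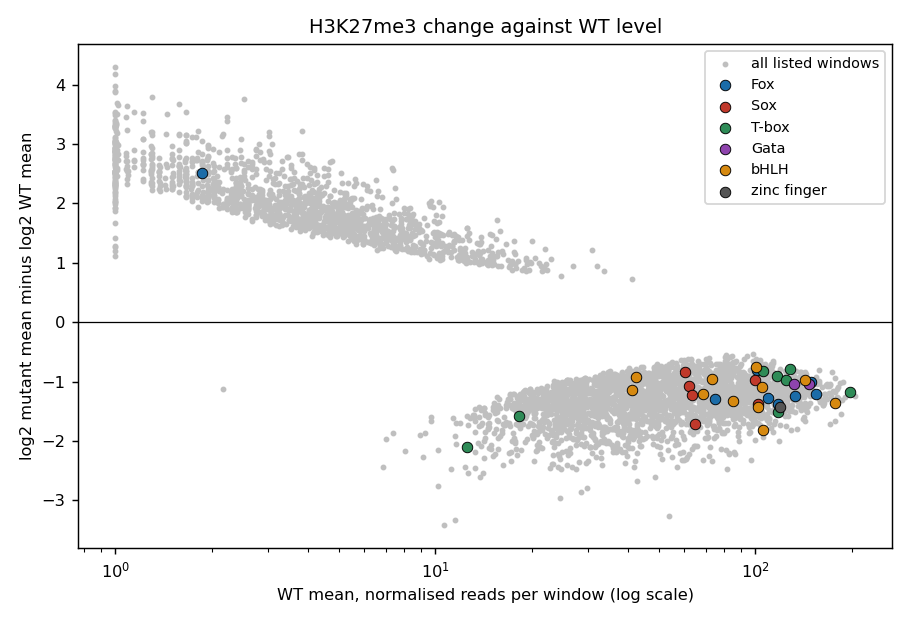
Difference of the log2 genotype means of H3K27me3 (mutant minus WT) against the WT mean (log axis) for all 4285 listed windows in grey and for member windows in family colours. Most member points lie at the right of the lower cloud, Eomes and Tbx4 at its left, and Foxp1 in the upper cloud.

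Falling windows lay both in gene bodies and in flanks, and those that could be placed were mostly away from starts. Of the 35 falling windows, 16 touched the gene body and 19 lay in the 5 kb flanks. A RefSeq start with its strand was at hand for 23 windows of 22 members. The window centre was 44 to 9019 bp from the nearest start, with a median of 2872 bp, 15 of them downstream and 8 upstream. For the 1462 pairs of other protein-coding genes and falling windows the median was similar, 2547 bp. Within 1000 bp of the start were 3 windows (13.0%), those of Ptf1a, Neurog2 and Eomes, against 26.7% of those pairs. Within 2000 bp were 8 windows (34.8%), against 44.3%. These differences rest on few windows and were not tested. Farthest were Neurod2 and Hand2, whose windows lay 9019 and 8476 bp downstream, past the far end of each gene. Foxb1, Foxf1, Foxp2, Sox10, Sox17, Sox18, Tbx2, Tbx5, Tbx15, Gata4 and Insm1 had windows and were not placed in this way. Among them, the Sox10 window crossed an end of its gene body and the Sox18 window lay 24 bp outside its body. Any window near the start of these genes is therefore missing from the counts within 1000 and 2000 bp.

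**Figure D3:**
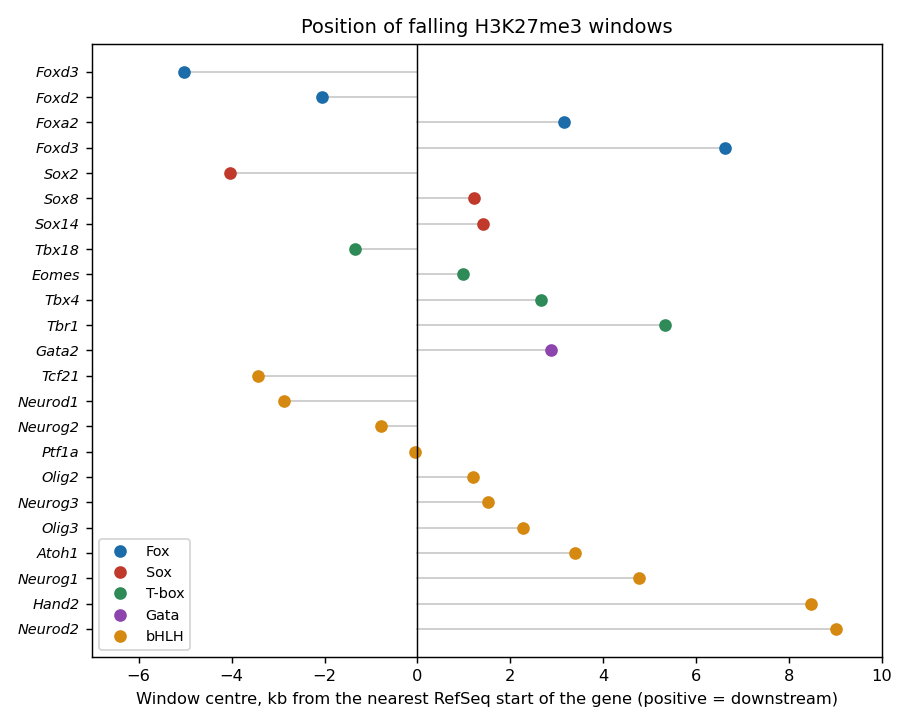
Distance in kb from the nearest RefSeq start of the gene to the centre of each falling H3K27me3 window, for the 23 windows with a start, coloured by family. Points lie on both sides of the start and 3 are within 1000 bp of it.

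Promoters of members were rich in CG. In the 300 bases around the start, the median CG number was 21 in the 35 members with a promoter sequence, against 13 in 17492 protein-coding genes, and 28 of the 35 had at least 10, against 57.6% of all genes. It did not separate members with a falling window from the others: 22 with one had a median of 19.5 (range 4 to 32) and 13 without one had 22 (range 3 to 37). The lowest numbers were 3 at Sox5 and at Sox6 and 4 at Olig3. The E-box CANNTG, the site that bHLH dimers bind, read on both strands since it is its own reverse complement, was present in a promoter of 65.7% of members and of 72.1% of all genes. These are matches of letters in a fixed window and show no binding.

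No H3K27me3 window was called within 5 kb of 20 members. They were Foxc2, Foxd1, Foxe1, Foxf2, Foxj1, Foxl2, Foxn1, Foxq1, Sox1, Sox5, Sox6, Sox7, Sox11, Sox21, Tbx3, Tbx20, Gata3, Gata5, Olig1 and Hand1. Windows that miss the FDR are not listed, so these genes may have had the mark without a called change. With flanks of 10 kb, falling windows were also found at Foxc2, Foxf2, Foxl2, Gata3, Sox1 and Tbx3, making 39 members, against 8.63% of all genes. The Foxc2 window, 7755 bp away, also lies within 5 kb of Foxl1, which is not a member. Tbx3, a repressor gene of limb and mammary gland, went from 155 to 77.1 normalised reads at a window 6327 bp away. Foxl2, of ovarian granulosa cells, went from 133 to 69.5. Foxf2, of gut mesenchyme, had falling windows on both sides, from 77.2 to 32.9 and from 40.5 to 10.8. Within 50 kb, 43 members (79.6%) had a listed window, against 24.9% of all genes, and 11 had none, these being Foxd1, Foxe1, Foxn1, Foxq1, Sox5, Sox6, Sox7, Sox11, Sox21, Tbx20 and Hand1. Genes known in skin were found on both sides of this divide. Foxn1, Foxe1, Foxq1, Sox5, Sox6 and Sox21 were among the 11. Tbx15 fell within the gene, Sox2, Sox10, Sox18, Tbx18 and Atoh1 fell within 5 kb, and Foxc2 and Tbx3 within 10 kb. Gata3 had a falling window at 6798 bp and a rising one at 8833 bp, and Foxp1 rose.

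Foxp1, a repressor gene that restrains hair follicle stem cells, went the other way. Its window inside the gene, on chromosome 6 from 99495679 to 99496079 and 25114 bp downstream of a RefSeq start, rose from 1.87 normalised reads in WT to 10.7 in the mutant. The log2 fold was 1.39 and the FDR 0.00914 by the authors' deposited table, and with so few reads in WT the ratio of 5.72 is imprecise. A further window 9925 bp outside the gene, beyond the 5 kb limit, rose from 12.7 to 33.2 (FDR 0.00400 by the authors' deposited table). These windows lie on either side of the outermost RefSeq start. Foxp1 was the member with regions in more than 1 table, since it also held 7 of the 14 H3K36me2 islands.

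The second comparison asked how H3K36me2 itself differed at these genes. Islands were found at 5 of the 54 (9.26%), namely Foxn1, Foxp1, Foxq1, Gata3 and Sox6, against 20.6% of all protein-coding genes. Each of the 5 had an island called lower in the mutant, so the share of members with a lower island was also 9.26%, below the 12.2% of all genes. Of the 4515 genes with any island, 59.2% had a lower one. Foxp1 had islands called higher as well, the only member to do so (1.85%, against 7.19% of all genes). Of the 38 members under 10 kb, only Foxq1 had an island, a lower one, where 9.69% of all genes of that size had any, 5.24% a lower and 2.43% a higher one. Of the 14 islands, 9 were lower, 3 higher and 2 called in neither direction. Of all 13409 islands, 58.1% were lower and 17.3% higher. The 33 members with a falling H3K27me3 window had no H3K36me2 island within 5 kb, as was so for 90.2% of the 1627 genes with a falling window, and the 4 island genes other than Foxp1 had no called H3K27me3 window there.

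Sox6, which with Sox5 drives cartilage and also acts in muscle and red cells, had 4 islands, and every one was lower. Nearest the outermost start, on chromosome 7 from 115993201 to 115997400, were 119 mutant and 144 WT reads, a depth-scaled ratio of 0.657 (exact binomial 95% interval 0.511 to 0.844). The next, from 115963001 to 115967400, had 106 and 149 reads and a ratio of 0.566 (0.437 to 0.731), with an FDR of 6.56e-10 by the authors' deposited table. At the far end of the gene were an island with 82 and 111 reads (0.588, interval 0.436 to 0.789) and one with 136 and 147 reads (0.736, interval 0.579 to 0.936). All 4 intervals lay below 1. Relative to the median island fold, 0.814, 1 of the 4 was still called lower by an exact binomial test with Benjamini-Hochberg adjustment over all islands, that from 115963001 (adjusted p = 0.0153).

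Foxp1 had islands in both directions. At the end farthest from the outermost start, from 98954601 to 98957000, 121 mutant and 60 WT reads gave a ratio of 1.60 (1.17 to 2.22), the highest at any member. Within the gene from 99370601 to 99372800, 106 and 58 reads gave 1.45 (1.05 to 2.04), and from 99396001 to 99400200, 173 and 114 reads gave 1.21 (0.947 to 1.54). This last interval includes 1, although the island was called higher with an FDR of 0.0423 by the authors' deposited table. Its neighbours on either side were lower, with 481 and 455 reads (0.841, interval 0.738 to 0.958) and 294 and 292 reads (0.801, interval 0.679 to 0.945). Relative to the median island fold these stood at 1.03 and 0.983. The other islands, with ratios of 1.09 and 1.08, were called in neither direction. The rising H3K27me3 window was 83879 bp from the nearest of the islands, so the listed regions of the marks did not overlap.

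**Figure D4:**
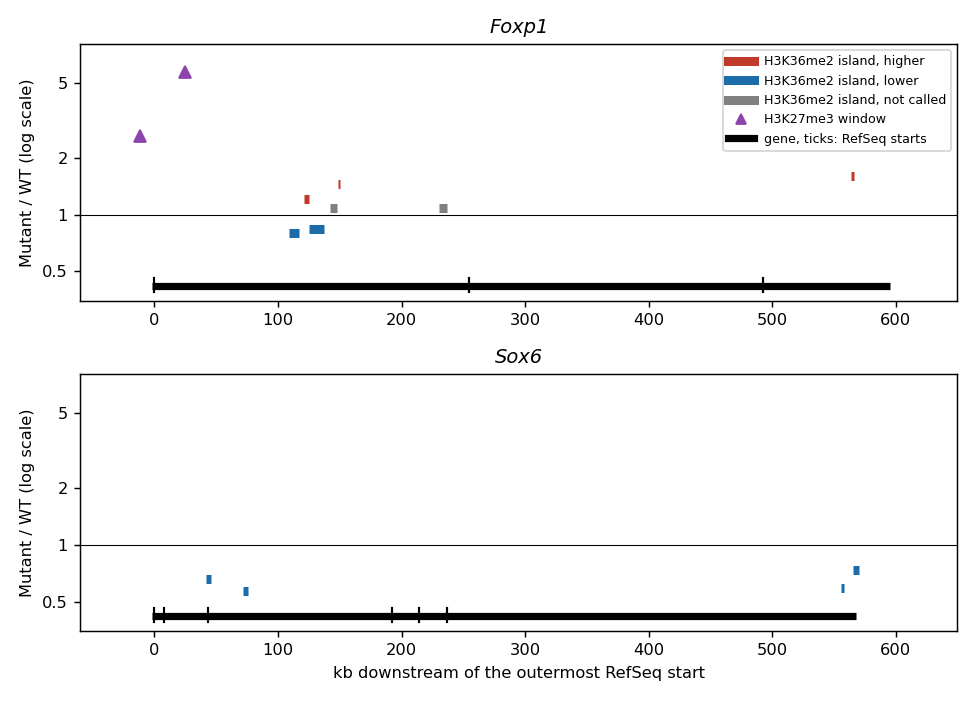
Mutant over WT ratio (log axis) of H3K36me2 islands (bars to scale) and H3K27me3 windows (triangles) along Foxp1 and Sox6, in kb downstream of the outermost RefSeq start, including windows within 50 kb of the gene. Foxp1 has islands on both sides of 1 and 2 rising windows near its start, and Sox6 has 4 lower islands and no listed window.

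At the remaining genes the islands lay in the flanks. Foxq1, a hair shaft gene whose loss gives the satin coat, had an island 570 bp outside its body, on chromosome 13 from 31553401 to 31557600. Counts there were 108 in the mutant pool and 151 in the WT pool, a ratio of 0.569 (0.440 to 0.733), called with FDR 7.11e-10 by the authors' deposited table, and it was still lower relative to the median of all islands (exact binomial test, adjusted p = 0.0141). Gata3, a regulator of T cells and of the inner root sheath of hair, had an island 3878 bp from its body with 113 and 121 reads, a ratio of 0.743 (0.570 to 0.968). Foxn1, the nude gene that acts in keratinocyte differentiation and thymus epithelium, had an island 4618 bp away that overlaps Slc13a2, with 264 and 243 reads. Its ratio was 0.864 with an interval of 0.723 to 1.03, which includes 1, and an FDR of 0.0213 by the authors' deposited table. Foxq1 and Sox6 were thus the 2 members still called lower relative to the median.

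**Figure D5:**
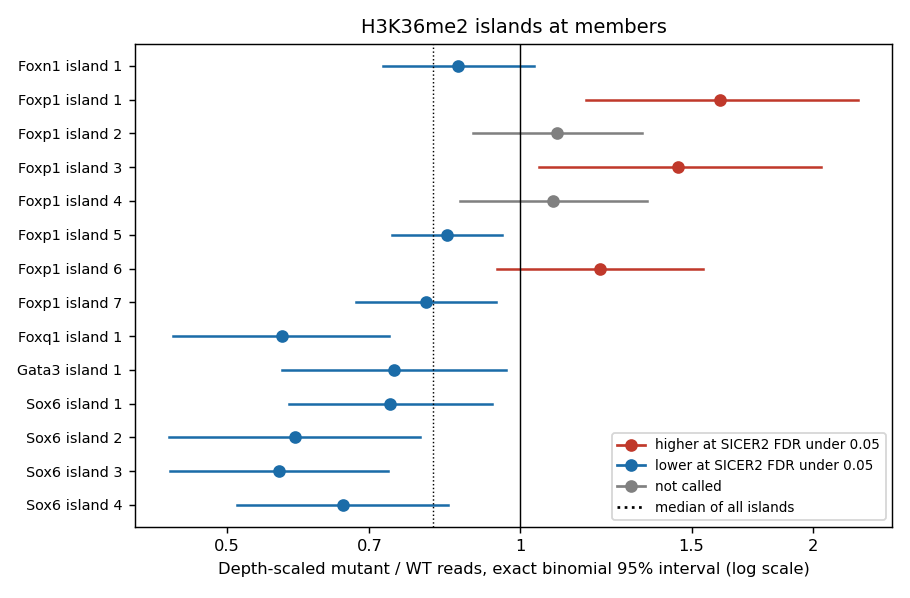
Depth-scaled ratio of mutant to WT reads (log axis) with exact binomial 95% intervals for the 14 H3K36me2 islands at members, numbered by position along the chromosome. The solid line marks equality and the dotted line the median island fold, 0.814, and the intervals of Foxn1 and of island 6 of Foxp1 cross equality although both were called.

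Intervals of read ratios cover counting error in the pools only, and PCR copies are not independent molecules. By DiffBind, 0 of 18072 H3K36me2 windows passed an FDR of 0.05 and 730 (4.04%) had a nominal p under 0.05. None of the 730 lay within 5 or 10 kb of a member, against 1.89% of all genes, and 0.718% of those under 10 kb, with one within 5 kb. The nearest H3K36me2 island lay at a median distance of 135 kb from a member, against 77.5 kb for all genes, and 42 members (77.8%, against 58.4% of all genes) had none within 50 kb. Atoh1, Sox11, Eomes and Tbx15 were more than 1000 kb from any.

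Several members mark other cell types of the skin, and further markers of those types were read beside them. The counts stand beside 7.43% of all genes with a falling and 2.64% with a rising window, and markers that are members are counted above already. Of 7 Merkel cell markers, 5 had a falling H3K27me3 window, namely the members Atoh1, Sox2 and Insm1 together with Isl1 (92.4 to 40.2 normalised reads) and Krt18 (82.4 to 43.2). Of 8 melanocyte markers, Sox10 and Kit fell, Kit from 39.8 to 8.37. Among 10 fibroblast and endothelial markers, Sox18, Kdr (60.7 to 22.7) and Pdgfra (132 to 70.2 at its stronger window) fell, while Pecam1 (4.05 to 24.8) and Vwf (3.30 to 13.4) rose. None of 8 immune markers had a called window. Of 8 keratinocyte markers none fell, and Trp63 (2.52 to 34.2) and Itga6 (5.28 to 17.0) rose. Islands of H3K36me2 were called higher at 4 of the 8 keratinocyte markers (Krt5, Krt14, Itga6 and Trp63), against 7.19% of all genes. Of these, Trp63 also had lower ones. The Krt14 island had 57 mutant and 16 WT reads, at the gene whose promoter drives Cre in the mutant mice alone. Whether reads from the Cre construct count there was not tested. In the other marker lists no island was called higher, and lower ones were found at 2 melanocyte, 2 fibroblast and endothelial, 1 immune and 0 Merkel markers, against 12.2% of all genes. Whether a changed share of these cells plays a part in the values at members was not tested. No cell type can be read from these marks alone, since windows that were not called are not listed.

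Other genes of the same families behaved alike in direction. Of 85 further Fox, Sox, T-box, Gata and bHLH genes, 23 (27.1%) had a falling H3K27me3 window, against 7.43% of all genes. A rising one was found at 1 (1.18%), against 2.64%. Falling genes included the mesoderm gene T (164 to 64.1 normalised reads), the mesenchymal gene Twist2 (130 to 46.3) and the muscle gene Myod1 (101 to 35.1). The rising one was Tcf4, a broadly expressed bHLH partner gene, from 1.74 to 8.66. H3K36me2 islands were found at 16 of the 85, lower at 10 and higher at 6. These shares of 18.8%, 11.8% and 7.06% were near the 20.6%, 12.2% and 7.19% of all genes. By subfamily, falling windows were found at 7 of 29 Fox, 2 of 7 Sox, 3 of 8 T-box, 1 of 2 Gata and 10 of 39 bHLH genes. These genes include widely expressed ones such as Foxo3 and Tcf3, and both lists were chosen with earlier results of these data known. Their lower share is therefore not a like-for-like contrast with the members, and the difference was not tested.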

How the data were processed

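CUT&RUN used a Cell Signaling kit, NEBNext Ultra libraries and paired reads of 37 bp, per the labels' protocols. Of 18 libraries (6 groups of 3), the 6 IgG libraries were not analysed here. Bowtie2, DiffBind, DESeq2 and SICER with GRCm38 (mm10) are named in the submitters' processing notes, without versions. Peak calling, duplicates, blacklisting, spike-in and the merging of libraries for SICER2 are not stated there.

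The deposited DiffBind tables hold log2 mean normalised reads per genotype, a log2 fold and, for significance, a p-value with its FDR, as the file headers name them. The deposited SICER2 table holds read counts and RPM (scaled to the pool's size) for each genotype, the fold between them, and for each direction a p-value with its FDR, as the file headers name them. Counts divided by RPM gave the pool sizes, and FDR over p at the first rank gave the number of windows tested. The depth of single libraries is unknown, and DiffBind's normalisation cannot be changed from the tables.

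Genotype means were converted from log2, and ratios and differences given in the text are of these means unless the deposited fold is named. A window was called at the authors' FDR under 0.05 and assigned to each gene whose RefSeq body (GRCm38.p6) it overlapped within 5 kb. Island starts, which count from 0, were shifted by 1. Exact binomial intervals (Clopper-Pearson, 95%) and tests used pooled counts in scipy 1.17.1, with Benjamini-Hochberg adjustment over all islands, and the test was checked on simulated counts. Promoters were RefSeq's 250 bases before to 50 after a start, with 1 median per gene.

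All 54 members matched RefSeq by symbol, and 35 had a promoter. By the rule for named genes, every member with a region is named with its direction and every other one once. Full values go to the largest differences of each family, to members with many, opposite or doubly marked regions, and to members known in skin. The members and lists were chosen with earlier results of these data known. Alternatives were other flanks, a stricter FDR, a minimum difference, a binomial test and scaling by the median island.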

Additional observations from a re-analysis of the deposited data

How the results depend on the processing

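The number of members with a falling H3K27me3 window was 33, and 29 at an FDR under 0.01. It was 39 with 10 kb flanks (8.63% of all genes) and 15 with gene bodies only (5.70% of all genes). Where the genotype means had to differ by at least 1 on the log2 scale, it was 21. Members with a rising window numbered 1, and 2 with 10 kb flanks (Gata3 added), where 3.54% of all genes had one. Among members under 10 kb there were 0, against 0.768% of all genes of that size. For the stricter FDR, the minimum difference and the island alternatives, no share over all genes was computed. Members with a lower H3K36me2 island numbered 5, 4 by the exact binomial test with the scaling left as deposited, 2 with gene bodies only and 2 relative to the median island. Relative to that median, the log2 fold at Foxn1 turned from -0.21 to 0.085 and that of the Foxp1 island from 99383401 from -0.25 to 0.046. Among the 14 islands, 5 further ones were no longer called and 2 Foxp1 islands became called. That division would also remove a general loss of H3K36me2. Genotype-mean differences had the sign of the deposited fold at all 36 windows. Gene-body counts drop flanking windows by construction. No replicate could be left out and no paired analysis was possible because the tables hold no value per library. No H3K36me2 DiffBind window was found at a member under any alternative run, and the pooled counts limit each island to its reads.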

Other observations

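Beyond the 5 kb flanks and up to 50 kb from a member lay 17 H3K36me2 islands. Of these, 16 were called lower and 1, near Gata5, higher, against 58.1% and 17.3% of all islands. Their median log2 fold was -0.40, against -0.30 over all islands. Several share a neighbourhood, with 4 near Sox7 and 3 near Gata3, so they are not independent. With the 14 nearer islands included, 25 of 31 were lower, and within 100 kb 44 of 59. These distances were chosen after the data were seen, and the difference was not tested.

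Tcf21, whose H3K27me3 window had the smallest p of the members, had its nearest island 36.9 kb away, and the authors' deposited table gives 0.515 as that island's fold. At Gata3 the marks met outside the 5 kb limit. A window 8833 bp beyond one end of the gene rose from 2.75 to 11.4 normalised reads (FDR 0.0113 in the authors' deposited table), 1556 bp from the lower island described above. On the other side of the gene, 6798 bp away, H3K27me3 fell from 119 to 50.9 (FDR 4.97e-08 in the authors' deposited table). Of the 59 listed H3K27me3 windows within 50 kb of members, 53 fell and 6 rose, against 2742 and 1543 of all 4285 listed windows. Those that rose lay around Foxp1, Foxj1, Gata3, Gata5 and Neurod1. The difference was not tested.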
